A study of Tupaia belangeri chinensis with 36 samples.

Results

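The microRNAs miR-10a, miR-10b, miR-196a and miR-196b were followed from the testis through the head (caput) to the tail (cauda) of the epididymis in Chinese tree shrews (Tupaia belangeri chinensis), small mammals related to primates. They were taken by name: every entry of the deposited miRNA count table whose mouse-style name begins with miR-10a, miR-10b, miR-196a or miR-196b. The rule found 8 of 1210 entries (491 of the 1210 carry a mouse name). They are both arms (5p and 3p) of the hairpins of miR-10a, miR-10b and miR-196b, and miR-196a-5p with miR-196a-2-3p. The members were also selected on a readout, their measured CPM along the tract in both seasons. Levels in the 3 tissues are therefore given as a description without a test, while changes between seasons and ratios within a library were tested. Those tests draw on the same counts of both seasons that the selection read, so they are not independent of it. Of the 8 entries, 7 reached a mean of 10 CPM (the count as a rate of the library's total count) over the measured libraries, as did 325 of all 1210 entries.

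MicroRNAs are short RNAs cut from hairpin precursors, and each guides a silencing complex to messenger RNAs through the seed, a short stretch near the start of the mature strand. The genes of miR-10 and miR-196 lie inside the Hox clusters, whose homeodomain transcription factors set position along the body axis, and some Hox messages are known targets of both families. In vertebrates the miR-10 genes sit beside Hox4 genes and the miR-196 genes beside Hox9 and Hox10 genes, which places miR-196 nearer the posterior end of a cluster. In the RefSeq annotation of the tree shrew genome (TupChi_1.0), 3 entries matched by name. MIR10B-1 and MIR10B-2 were listed between the protein-coding genes HOXD3 and HOXD8, and MIR196A between HOXC10 and HOXC9.

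Small RNA was sequenced as single reads of 50 nt from testis, caput and cauda of males of 1.5 to 2 years, taken in the non-reproductive season (NR, December 2023) or the reproductive season (R, April 2024). The labels name no strain, genotype or treatment for any group. Season and collection date cannot be told apart. Each of the 6 groups had 3 columns named as biological replicates, but 2 of the 18 columns (TESTIS-NR 2 and CAPUT-NR 2) matched, in every entry with a count, the rounded mean of the 2 columns beside them and were left out. That left 16 measured libraries: 2 of testis NR and 2 of caput NR, and 3 in each other group. The labels do not say whether the replicates of a group were separate animals, so p-values measure the spread between these libraries.

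Totals ran from 2166152 to 14756858 counts per library, and the 10 most abundant entries took 67.1% to 75.1% of each. Marker miRNAs set the tissues apart. The 13 entries of the epithelial list (miR-200 family, miR-141, miR-203, miR-205, miR-429) summed to 316 to 4344 CPM in testis libraries, 98573 to 126534 in caput and 75556 to 109848 in cauda. The 5 smooth muscle entries (miR-143, miR-145) summed to 5298 to 12205 CPM in testis, 5214 to 11101 in caput and 23147 to 40039 in cauda. Sums of the 6 germ and ciliated cell entries (miR-34b, miR-34c, miR-449) were 4704 to 7994 CPM in 4 testis libraries but 341 CPM in the library labelled TESTIS-NR 1, within the 324 to 1254 CPM of the epididymis. TESTIS-NR 1 therefore stood apart from the other testis libraries, and its effect is given beside the testis values that turn on it.

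The miR-10 family was at its highest in the caput and remained abundant in the cauda, whereas the miR-196 family was high in the cauda and low in both caput and testis. Summed over its 4 entries, miR-10 took 5.18% ± 0.423 (SD, n = 2) of the counts in caput NR and 5.35% ± 0.662 (n = 3) in caput R. Its share was 3.53% ± 0.606 (n = 3) and 2.90% ± 0.209 (n = 3) in cauda NR and R, and 0.645% ± 0.273 (n = 2) and 0.441% ± 0.129 (n = 3) in testis. The 4 miR-196 entries took 1.24% ± 0.105 (n = 3) in cauda NR and 0.891% ± 0.0685 (n = 3) in cauda R. In caput their share was 0.147% ± 0.0275 (n = 2) and 0.0970% ± 0.0235 (n = 3), and in testis 0.121% ± 0.0881 (n = 2) and 0.0815% ± 0.00733 (n = 3). Without TESTIS-NR 1, the testis NR shares are those of 1 library, 0.451% for miR-10 and 0.0583% for miR-196. In these bulk samples, more cells of a type and more of a miRNA per cell cannot be told apart.

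**Figure D1:**
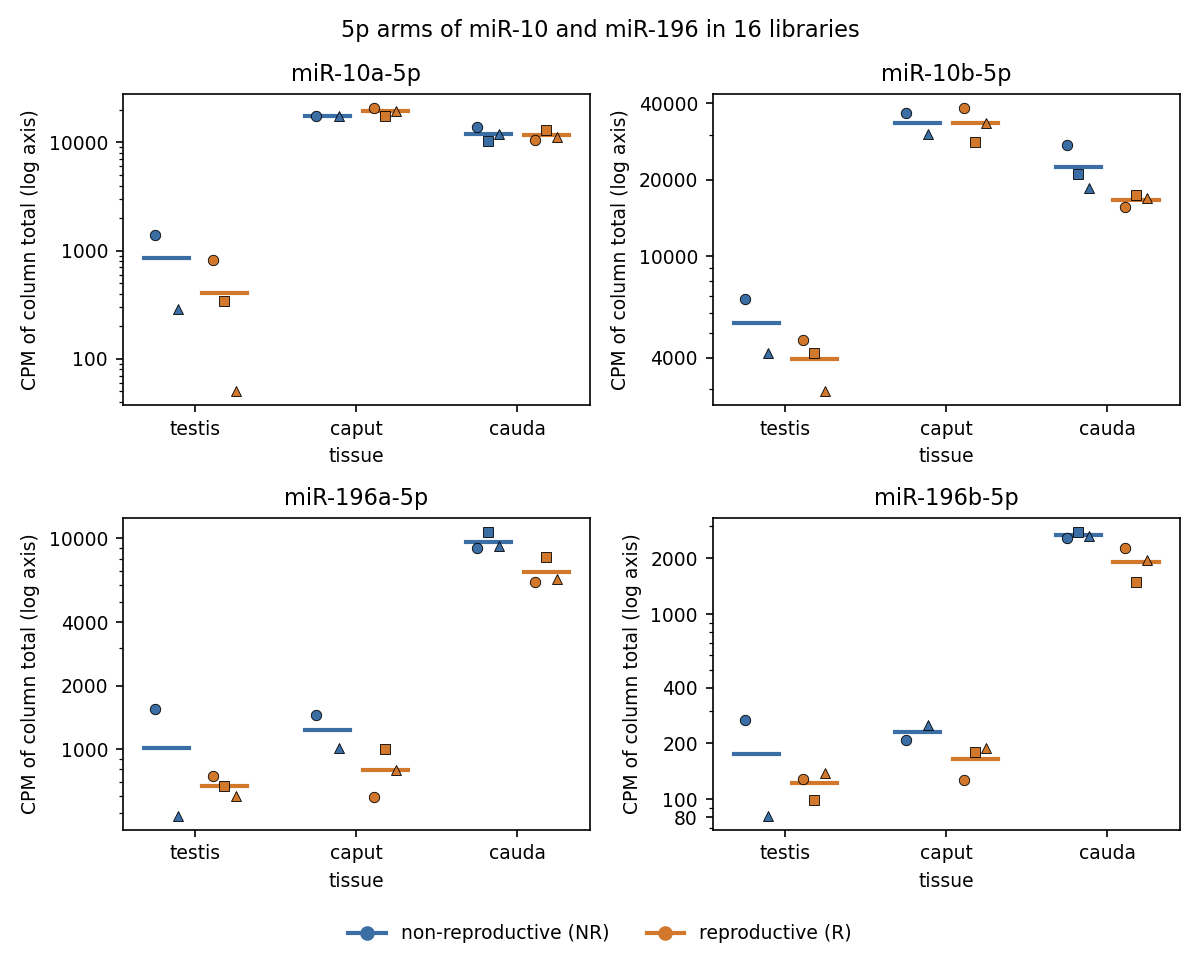
CPM of the column total on a log axis for the 4 members that are 5p arms, by tissue and season. Each point is a library (circle, square and triangle for replicates 1, 2 and 3) and each bar the arithmetic mean of a group. miR-10a-5p and miR-10b-5p lie higher in both epididymal segments than in testis, and miR-196a-5p and miR-196b-5p stand apart in the cauda.

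miR-10b-5p, the guide arm of miR-10b, was the most abundant member, with a mean of 19163 CPM over the 16 libraries, 10th among all 1210 entries. In caput it measured 36504 and 30330 CPM in the NR libraries and 38363, 28154 and 33406 CPM in the R libraries. In cauda the values were 27473, 21064 and 18612 CPM in NR and 15634, 17383 and 16889 CPM in R. In testis they were 6813 and 4154 CPM in NR and 4708, 4177 and 2951 CPM in R. Every caput library was above every cauda library, and every cauda library above every testis library. Group means were 1.49-fold higher in caput than in cauda in NR and 2.00-fold higher in R, and they were 6.09-fold and 8.44-fold higher in caput than in testis. The NR value was 8.05-fold without TESTIS-NR 1, and the R value was 15.6-fold with TMM scaling, which matches libraries on the bulk of their entries. Its median rank within a library was 8 in caput, 10 in cauda and 28 in testis.

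miR-10a-5p, its close relative from another Hox cluster, was about as even across libraries of a segment but far more uneven in testis. Caput libraries held 17397 and 17548 CPM in NR and 20978, 17754 and 19390 CPM in R, and cauda libraries 13902, 10407 and 11870 CPM in NR and 10632, 12963 and 11221 CPM in R. Testis libraries held 1411 CPM (NR 1) and 290 CPM (NR 3), then 816, 344 and 50.3 CPM (R 1 to R 3). The order of the tissues was that of miR-10b-5p, again without overlap, but the range in testis covered 50.3 to 1411 CPM against 2951 to 6813 CPM for miR-10b-5p. Caput means exceeded cauda means 1.45-fold in NR and 1.67-fold in R, and testis means 20.5-fold and 48.0-fold. The excess over testis hung on single libraries. In NR it was 60.3-fold without TESTIS-NR 1 and 12.4-fold without TESTIS-NR 3, in R it was 98.2-fold without TESTIS-R 1, and with TMM scaling the R value was 87.0-fold.

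The 3p arms, which are usually the arm discarded on loading, were counted at much lower levels. miR-10a-3p measured 343 to 425 CPM in caput, 220 to 298 CPM in cauda and 0.417 to 34.5 CPM in testis, where TESTIS-R 2 held 2 counts and TESTIS-R 3 held 5. Its caput means were 1.44-fold (NR) and 1.43-fold (R) above the cauda means, with no overlap. miR-10b-3p did not share the step from caput to cauda. It measured 375 to 566 CPM in caput, 455 to 659 CPM in cauda and 38.3 to 121 CPM in testis, and caput and cauda overlapped in both seasons. On the log2 scale its cauda over caput ratio was 0.15 in NR with the column totals but -0.22 with TMM scaling, so its direction there depends on the scaling.

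miR-196a-5p, which both miR-196a hairpins can yield, was the most abundant of its family. Cauda libraries held 8958, 10667 and 9218 CPM in NR and 6162, 8118 and 6386 CPM in R. Caput libraries held 1448 and 1010 CPM in NR and 595, 1004 and 798 CPM in R, and testis libraries 1547 and 483 CPM in NR and 743, 667 and 597 CPM in R. Cauda stood apart, while caput and testis overlapped in both seasons. Cauda means were 7.82-fold (NR) and 8.63-fold (R) above caput, and 9.47-fold and 10.3-fold above testis. The excess over testis in NR was 19.9-fold without TESTIS-NR 1 and 6.21-fold without TESTIS-NR 3. With column totals, caput means exceeded testis means by 1.21-fold and 1.19-fold, less than the spread of the libraries. How close caput and testis were depended on the scaling: with TMM the values were 1.67-fold and 2.04-fold, and for miR-196b-5p, described next, they went from 1.32-fold and 1.36-fold to 1.80-fold and 2.35-fold.

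miR-196b-5p had the same pattern at a lower level. It measured 2579, 2773 and 2647 CPM in the NR cauda libraries, 2278, 1486 and 1958 CPM in those of R, 127 to 253 CPM in caput and 81.4 to 268 CPM in testis. Cauda means were 11.6-fold (NR) and 11.5-fold (R) above caput means, and caput and testis overlapped again. It ranked 34 to 50 within the cauda libraries, 97 to 122 in caput and 99 to 166 in testis. For miR-196a-5p the median ranks were 22, 58 and 72.

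The overlap of caput and testis in NR rested on TESTIS-NR 1. Without it the testis NR value of miR-196a-5p is the 483 CPM of TESTIS-NR 3, below both caput NR libraries, and the log2 ratio of caput over testis becomes 1.35 in place of 0.28. For miR-196b-5p the value is 81.4 CPM, also below both.

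miR-196a-2-3p, the 3p arm of 1 of the miR-196a hairpins, differed from both 5p arms in being lowest in the caput. Cauda libraries held 53.8, 114 and 78.3 CPM in NR and 143.99, 88.6 and 97.1 CPM in R. Caput libraries held 7.02 and 10.9 CPM in NR and 2.37, 6.18 and 6.99 CPM in R, and testis libraries 13.3 and 18.6 CPM in NR and 27.3, 19.0 and 26.3 CPM in R. The 3 tissues did not overlap. Testis means were 1.78-fold (NR) and 4.67-fold (R) above caput means (1.24-fold and 2.80-fold with TMM scaling), and cauda means 9.16-fold and 21.2-fold above them. Without TESTIS-NR 1 the testis NR value is the 18.6 CPM of TESTIS-NR 3, also above both caput NR libraries. The remaining member, miR-196b-3p, was at 0 in all 5 testis libraries, where 3 counts of the summed total would be 0.175 CPM. It had 2 counts in 1 of 5 caput libraries, and 31 counts over the 6 cauda libraries (0.283 to 1.23 CPM). It was too low for any ratio or test. Such floors cover counting error only.

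**Figure D2:**
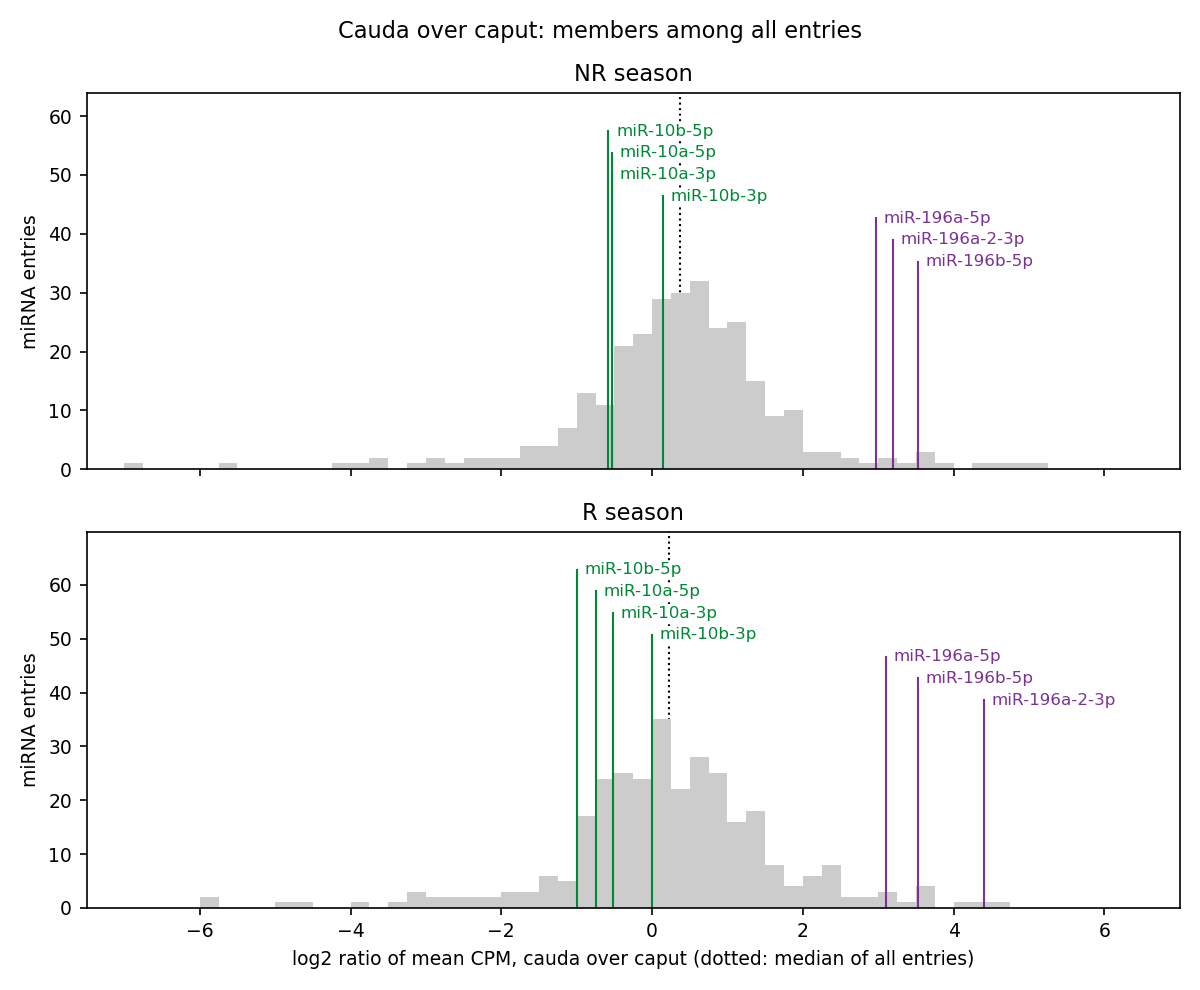
Distribution over miRNA entries of the log2 ratio of mean CPM, cauda over caput, for NR (293 entries) and R (309 entries), with the members as labelled lines and the median of all entries dotted. The miR-196 entries lie far to the right and miR-10b-5p, miR-10a-5p and miR-10a-3p to the left of the median.

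Set among all entries, the members lay on opposite sides between the segments. The median log2 ratio of cauda over caput was 0.37 over 293 entries in NR and 0.22 over 309 entries in R. TMM scaling moved these medians to -0.0044 and -0.17. Relative to the median with column totals, miR-196b-5p stood at 3.17 (NR) and 3.30 (R), miR-196a-5p at 2.60 and 2.89, and miR-196a-2-3p at 2.83 and 4.18. On the same relative scale miR-10b-5p stood at -0.94 and -1.22, miR-10a-5p at -0.90 and -0.96, and miR-10a-3p at -0.90 and -0.74. Counted from the top, miR-196b-5p, miR-196a-2-3p and miR-196a-5p ranked 8, 11 and 12 of 293 in NR, and 7, 2 and 10 of 309 in R. The members were chosen on their levels along the tract, so these ranks are a description.

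Groups without overlap were common among all entries, so the counts of members are read beside that background. Of the 7 members, 3 (the miR-196 entries) were higher in every cauda than in every caput library in both seasons, as were 36.9% of all entries in NR and 24.0% in R. Another 3 (miR-10a-5p, miR-10a-3p and miR-10b-5p) were higher in every caput library, as were 16.6% of entries in NR and 16.6% in R. All 4 miR-10 entries were higher in every caput than in every testis library, beside 28.0% and 26.8% of all entries. Only miR-196a-2-3p was higher in every testis library than in caput, beside 38.5% and 36.6%. All 7 were higher in every cauda than in every testis library, beside 35.4% and 31.1%, and 0 were lower, beside 32.6% and 34.2%. These counts rest on the contrasts for which the members were chosen.

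Levels of the members were also set against markers of cell types, and the part of cell makeup in the levels was not tested. Per 1000 CPM of the epithelial list, miR-10a-5p in NR measured 325 and 666 CPM in testis, 157 to 159 in caput and 127.9 to 138 in cauda, so that the tissues stood apart with testis highest. In R the ranges overlapped, at 159 to 315 CPM in testis, 140 to 213 in caput and 96.8 to 168 in cauda. On the same basis, over both seasons, miR-10b-5p measured 1568 to 9553 CPM in testis, 222.5 to 389 in caput and 142.3 to 279 in cauda, which left testis far above the segments. The testis values divide by epithelial sums of only 316 to 4344 CPM, against 98573 to 126534 in caput and 75556 to 109848 in cauda. Of the testis libraries, miR-10b-5p was lowest on this basis in TESTIS-NR 1, where the epithelial sum was highest. Per 1000 CPM of the smooth muscle list, miR-196a-5p in NR measured 175 and 278 CPM in caput and 300.4 to 418 in cauda, and in R 90.4 to 108 and 154 to 282. Cauda thus stayed above caput within each season, by less than in CPM, and the ranges overlapped with seasons pooled. For miR-196b-5p the values were 39.995 and 43.9 CPM in caput and 86.3 to 111 in cauda in NR, and 16.3 to 25.8 and 51.6 to 56.9 in R. Per 1000 CPM of the mesenchyme list (miR-199, miR-214), both had wide gaps over both seasons, with miR-196a-5p at 91.3 to 105 CPM in caput and 430 to 734 in cauda, and miR-196b-5p at 13.2 to 26.4 and 115 to 191.

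Markers of other cells also differed between segments. The striated muscle list (miR-1a, miR-133, miR-206) summed to 3235 to 8158 CPM in cauda against 179 to 927 in caput and 93.1 to 1052 in testis. Leukocyte entries summed to 2097 to 8924 CPM in cauda and 1135 to 3133 in caput, and endothelial entries (miR-126a) to 18224 to 32551 and 5349 to 41447. Erythrocyte entries summed to 96.3 to 303 CPM in cauda and 90.8 to 703 in caput, and mesenchyme entries to 11991 to 21439 and 5953 to 15818. Entries of miR-192, miR-194 and miR-215, known from kidney and gut epithelium, went the other way, at 59.5 to 123 CPM in cauda and 427 to 1898 in caput.

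**Figure D3:**
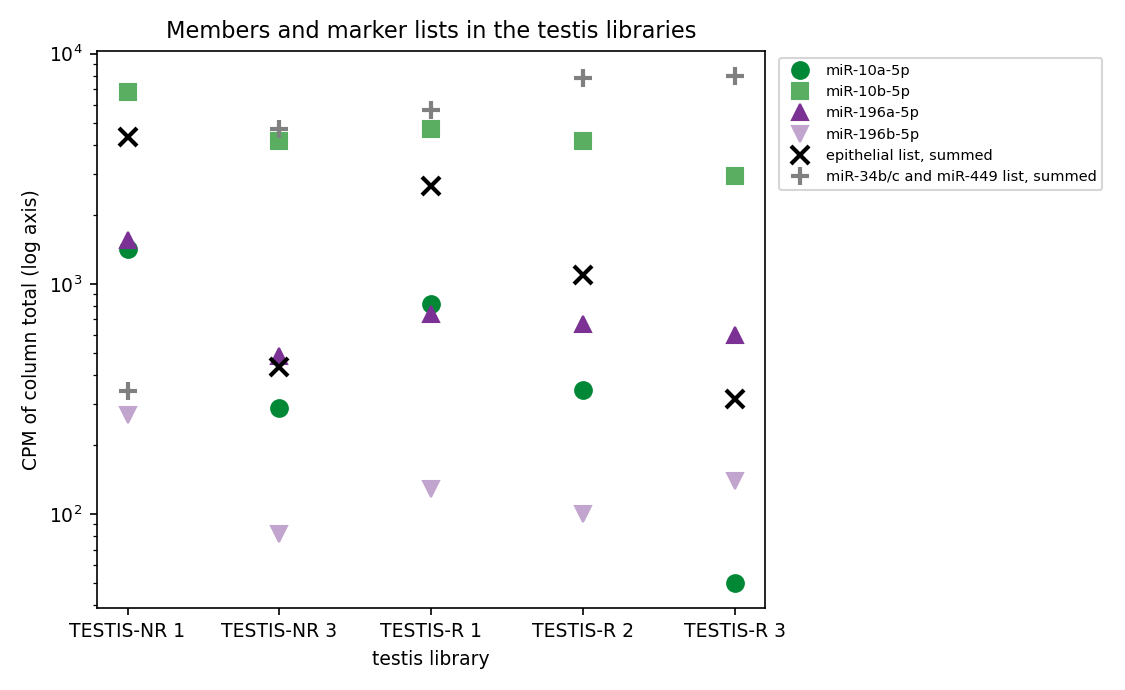
The 5 testis libraries, with summed CPM of the epithelial and of the germ and ciliated marker lists beside the CPM of the 4 members that are 5p arms, on a log axis. miR-10a-5p, miR-10b-5p and the epithelial sum run in the same order over the libraries. They go from TESTIS-NR 1 (1411, 6813 and 4344 CPM) to TESTIS-R 3 (50.3, 2951 and 316 CPM).

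Within the testis, miR-10a-5p and miR-10b-5p ran in the same order over the libraries as epithelial markers. The epithelial sums were 4344 and 435 CPM in the NR libraries and 2660, 1095 and 316 CPM in the R libraries. The order of the 5 libraries was the same as for miR-10a-5p (50.3 to 1411 CPM) and for miR-10b-5p, whose range was narrower (2951 to 6813 CPM). Between 1 and 5 of the 13 epithelial entries were at 0 in a testis library. The germ and ciliated sums were 341 and 4704 CPM in NR and 5713, 7859 and 7994 CPM in R. miR-196a-5p was highest in TESTIS-NR 1 (1547 CPM against 483 to 743 CPM in the other 4 libraries), as were miR-196b-5p (268 against 81.4 to 138 CPM) and miR-10b-5p. By contrast miR-196a-2-3p was lowest in that library, at 13.3 CPM.

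**Figure D4:**
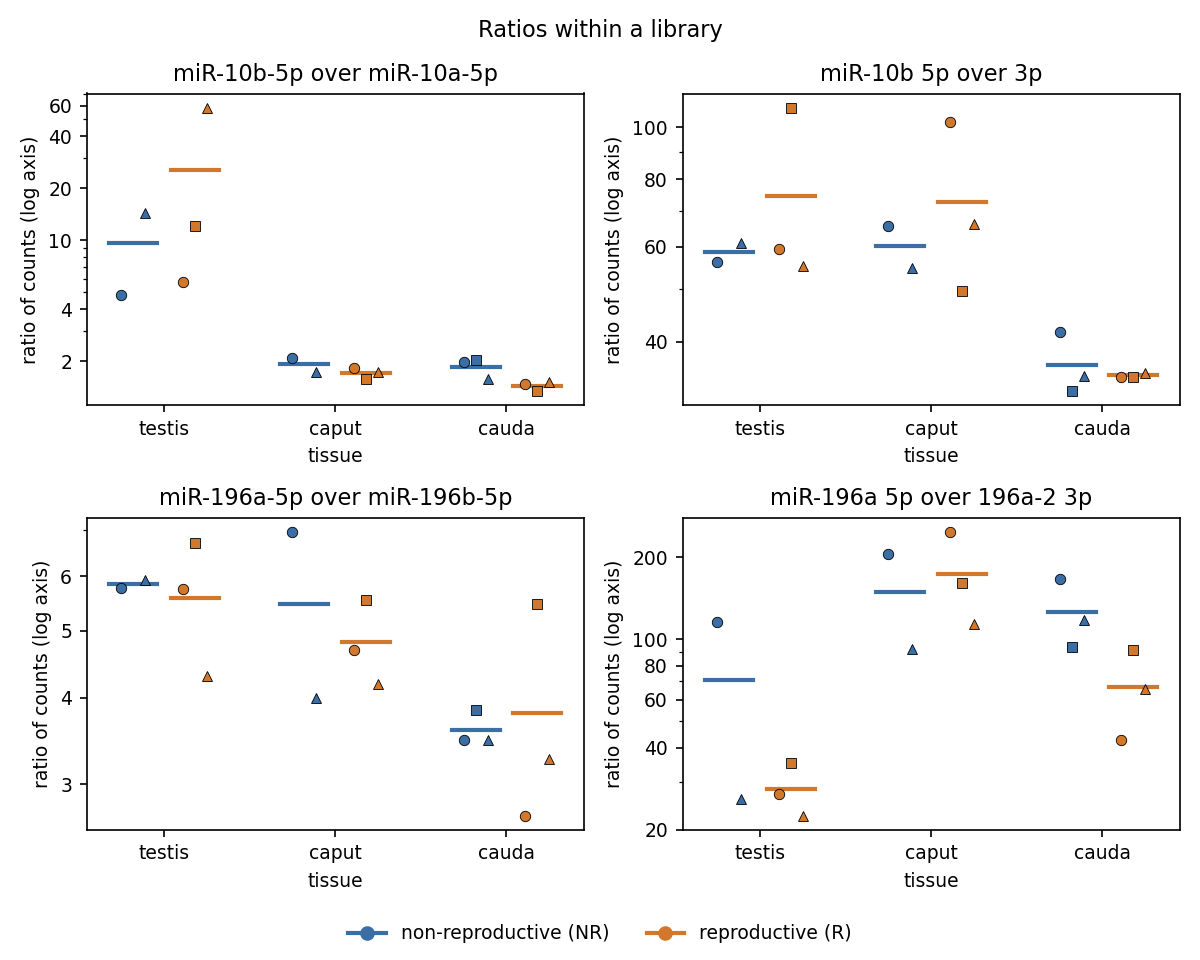
Ratios of counts within a library on log axes, by tissue and season: 2 ratios between relatives and 2 between arms. Points are libraries (circle, square and triangle for replicates 1, 2 and 3) and bars arithmetic means. The 10b over 10a ratio is tight in both segments (1.34 to 2.10) and wide in testis (4.83 to 58.4).

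Ratios within a library do not depend on how libraries are scaled. The 5p arms of miR-10a and miR-10b are near-identical, as are those of miR-196a and miR-196b, so how the authors' counting split reads between relatives bears on the ratios between them. miR-10b-5p was counted 1.59 to 2.10 times as often as miR-10a-5p in caput, 1.34 to 2.02 times in cauda and 4.83 to 58.4 times (median 12.1) in testis (5.77 to 58.4 without TESTIS-NR 1). The 2 segments overlapped, and every testis library lay above both. The ratio of miR-196a-5p to miR-196b-5p was alike in range in testis (4.30 to 6.69) and caput (3.996 to 6.94) and reached lower in cauda (2.70 to 5.46). Across families, miR-10a-5p was counted 12.0 to 35.3 times as often as miR-196a-5p in caput and 0.976 to 1.76 times in cauda, while in testis the ratio was 0.0847 to 1.10. In the caput, then, miR-10a-5p was the far more abundant, and in the cauda the levels were close.

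Over all libraries, the ratio between arms stood apart in a tissue only for miR-10b, in cauda. For miR-10b the 5p arm was counted 55.3 to 109 times as often as the 3p arm in testis, 49.7 to 102 times in caput and 32.4 to 41.7 times in cauda, and cauda did not overlap the others. For miR-10a the ranges were 41.3 to 58.8 in caput and 39.9 to 51.1 in cauda, which overlapped, and 19.9 to 661 in testis, where the 3p arm had few counts. The 3p arm of miR-10b was 1.051 to 1.58 times that of miR-10a in caput and 1.80 to 2.53 times in cauda, a gap that the 5p arms did not have. For miR-196a the ratio of the 5p arm to miR-196a-2-3p was 92.3 to 247 in caput, 42.8 to 166 in cauda and 22.5 to 115 in testis, where it was 22.5 to 35.0 without TESTIS-NR 1. The denominator comes from 1 of the 2 hairpins that can yield the 5p arm.

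Between seasons, 7 ratios were compared in 3 tissues, 21 two-sided exact permutation tests in all. As run, 3 libraries against 3 cannot give a p below 0.1, nor 2 against 3 a p below 0.2. In cauda the 10b-5p over 10a-5p ratio was 1.57 to 2.02 in NR and 1.34 to 1.51 in R, without overlap (difference of mean log2 ratios -0.36, exact p = 0.1, adjusted over the 21 tests 0.7). The miR-196a-5p over miR-196a-2-3p ratio in cauda was 93.5 to 166 in NR and 42.8 to 91.5 in R (difference -0.94, exact p = 0.1, adjusted 0.7). The ratio of miR-10a-5p to miR-196a-5p in cauda was 0.976 to 1.55 in NR and 1.60 to 1.76 in R (exact p = 0.1, adjusted 0.7). No ratio passed after adjustment.

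Season within each tissue was tested for all entries with edgeR's quasi-likelihood test, R minus NR, and Benjamini-Hochberg adjustment. None of the 7 members passed an adjusted p of 0.05 in any tissue. The test called 0 of 496 entries in testis (36 at an unadjusted p under 0.05), 0 of 534 in caput (24) and 14 of 455 in cauda (75), where 2.20% of entries were higher and 0.879% lower in R. The 14 of the cauda became 0 to 24 as each library was left out: 24 without CAUDA-NR 3, 4 without CAUDA-R 1, 1 without CAUDA-R 2 and 0 without any of the others. DESeq2 called 27, 20 and 48 entries in the 3 tissues, and 0 members. In each tissue 6 of the 7 members had a negative log2 change, some close to 0 (miR-10b-5p in caput -0.02, miR-10a-5p in cauda -0.0027). Of all entries, 270 of 496 in testis, 291 of 534 in caput and 241 of 455 in cauda had a positive change. The median over the members was -0.59 in testis, -0.29 in caput and -0.33 in cauda, beside 0.10, 0.10 and 0.05 over all entries tested. The testis count and median turned on TESTIS-NR 1. Without it miR-10a-5p (0.28), miR-10a-3p (0.58), miR-196a-5p (0.27) and miR-196b-5p (0.39) were positive. The libraries of a tissue are shared by all members, and the arms of 1 hairpin are not independent. These counts and medians were not tested.

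**Figure D5:**
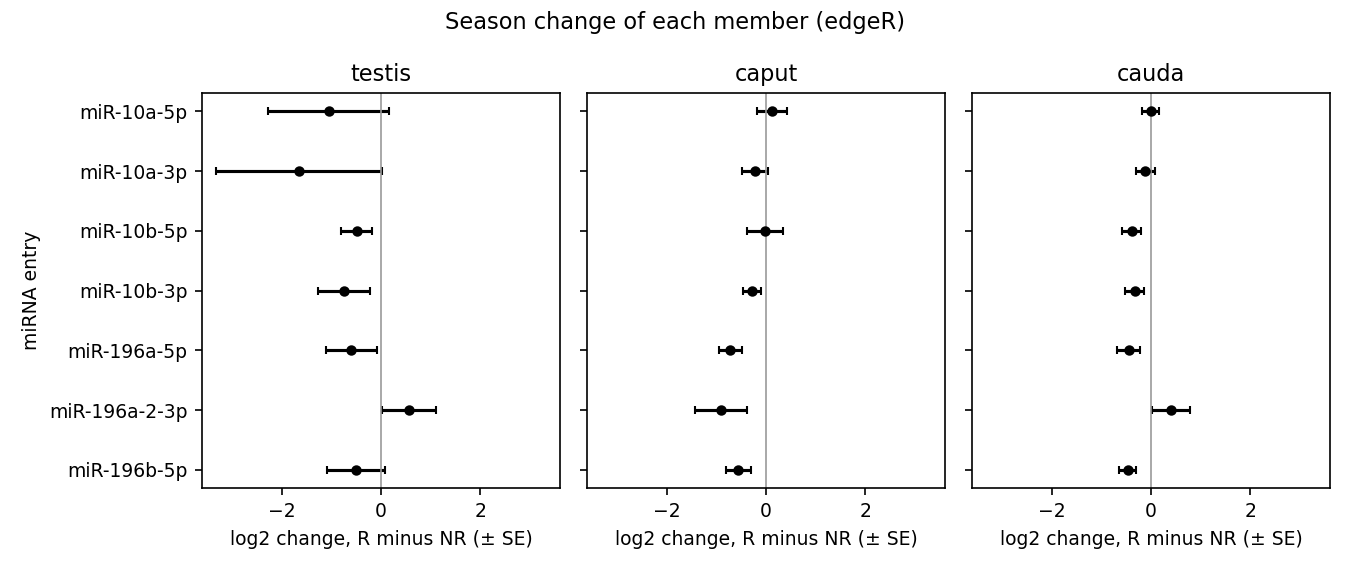
Log2 change (R minus NR) of the 7 members in each tissue from edgeR's quasi-likelihood fit, with bars of 1 standard error. None passed an adjusted p of 0.05, and most points lie below 0.

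In the cauda, miR-196b-5p had the smallest p of the members, with a log2 change of -0.47 (SE 0.17, edgeR unadjusted p = 0.0327, adjusted p = 0.250). Its means were 2666 ± 98.2 CPM in NR and 1908 ± 398 CPM in R (SD, n = 3 each), and the groups did not overlap. miR-196a-5p was at -0.45 (SE 0.23, edgeR adjusted p = 0.355), from 9615 ± 921 to 6889 ± 1071 CPM, again without overlap. miR-10b-5p was at -0.39 (SE 0.20, edgeR adjusted p = 0.353), from 22383 ± 4576 to 16635 ± 902 CPM. miR-10a-5p, at -0.0027 (SE 0.17, edgeR adjusted p = 0.996), had means of 12060 ± 1756 and 11605 ± 1212 CPM. In all, 4 of 7 members (miR-10b-5p, miR-10b-3p, miR-196a-5p, miR-196b-5p) had every NR library above every R library, beside 13.5% of all entries, and 0 had the reverse, beside 11.4%. Markers differed between the same libraries. Mesenchyme sums were 14543 to 21439 CPM in NR and 11991 to 12955 in R, and endothelial sums 27061 to 32551 and 18224 to 24971, both lower in every R library. Smooth muscle sums overlapped, at 23147 to 30688 CPM in NR and 28783 to 40039 in R. Per 1000 CPM of the mesenchyme list, miR-196a-5p in cauda had no gap between seasons (430 to 734 CPM in NR, 514 to 627 in R), nor had miR-196b-5p (123 to 191 and 115 to 190). Both kept a gap per 1000 CPM of the smooth muscle list. There miR-196a-5p measured 300.4 to 418 CPM in NR and 154 to 282 in R, and miR-196b-5p 86.3 to 111 and 51.6 to 56.9. On the epithelial list miR-196b-5p also kept a gap (24.9 to 36.7 CPM in NR, 19.3 to 22.8 in R), while miR-196a-5p overlapped. The part of these cells in the season values was not tested.

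In the caput, miR-196a-5p had a log2 change of -0.72 (SE 0.23, edgeR unadjusted p = 0.0291, adjusted p = 0.775). Its means were 1229 ± 309 CPM (n = 2) and 799 ± 204 CPM (n = 3). miR-196b-5p was at -0.55 (SE 0.25, edgeR adjusted p = 0.775) and miR-196a-2-3p at -0.91 (SE 0.53, edgeR adjusted p = 0.778). Those 3 and miR-10a-3p were lower in every R than in every NR library, beside 8.31% of all entries. Leukocyte sums were also lower in every R caput library (1135 to 2950 CPM against 2981 to 3133), and mesenchyme sums were 9593 to 15818 CPM in NR and 5953 to 10986 in R. Per 1000 CPM of the mesenchyme list, miR-196a-5p in caput measured 91.5 and 105 CPM in NR and 91.3 to 99.9 in R. Per 1000 CPM of the smooth muscle list it kept a gap, at 175 and 278 CPM in NR and 90.4 to 108 in R. The gap also remained per 1000 CPM of the epithelial list (9.03 and 13.3 CPM in NR, 6.03 to 7.93 in R). The part of these cells was not tested. Only miR-10a-5p was higher in every R library, beside 12.3% of entries, with the nearest libraries at 17548 (NR) and 17754 CPM (R). Its fitted change was 0.12 (SE 0.30, edgeR adjusted p = 0.982), and miR-10b-5p was at -0.02 (SE 0.36, edgeR adjusted p = 0.991).

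In the testis, errors were largest. miR-10a-5p was at -1.05 (SE 1.21, edgeR adjusted p = 0.972), miR-10a-3p at -1.65 (SE 1.67, edgeR adjusted p = 0.942) and miR-10b-5p at -0.49 (SE 0.31, edgeR adjusted p = 0.808). Without TESTIS-NR 1, the changes of 4 members turned positive: miR-10a-5p 0.28, miR-10a-3p 0.58, miR-196a-5p 0.27 and miR-196b-5p 0.39. miR-10b-5p remained negative without any 1 library, between -0.75 and -0.27. miR-196a-2-3p, at 0.56 (SE 0.54, edgeR adjusted p = 0.926), was the member with every R library above every NR library, beside 19.7% of entries, and 0 had the reverse, beside 11.7%.

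Season changes were also compared between tissues, in a fit of both segments together. Caput minus cauda gave 0 of 620 entries called by edgeR (35 at an unadjusted p under 0.05) and 0 of 7 members. The widest difference among members was that of miR-196a-2-3p, -1.31 (SE 0.69, edgeR adjusted p = 0.814), which was -0.91 in caput and 0.40 in cauda. Testis minus caput, a comparison chosen after the data were seen, gave 0 of 677 entries called (27 at an unadjusted p under 0.05), with miR-196a-2-3p at 1.23 (SE 0.83, edgeR adjusted p = 0.893). None of these differences passed, which does not show that the tissues changed alike.

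Among the other miRNAs, 9 of the 12 most like the miR-10 entries over the 16 libraries (3 for each of 4) belonged to the epithelial list. There were 217 candidates, at most 13 of them from that list. The same entries were picked repeatedly: the epithelial ones were miR-200a-3p, miR-200b-3p, miR-200b-5p, miR-200c-3p and miR-429-3p, so the 9 are not separate miRNAs. Likeness was Pearson's r of log2(CPM + 1), given as a description over libraries that share tissue and scaling. miR-10a-5p was nearest to miR-200a-3p (0.990), miR-200b-3p (0.989) and miR-429-3p (0.988), and miR-10a-3p to miR-200c-3p (0.971). miR-10b-5p was nearest to miR-152-3p (0.958), then miR-200a-3p (0.953) and miR-429-3p (0.951). miR-10b-3p was nearest to miR-181d-5p (0.982) and miR-200c-3p (0.981).

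For the 3 miR-196 entries, 9 of 9 belonged to the smooth muscle list, which holds at most 5 of the 217 candidates. These 9 were repeats of miR-143-5p, miR-143-3p, miR-145a-5p and miR-145a-3p. miR-196a-5p was nearest to miR-145a-3p (0.927), miR-145a-5p (0.907) and miR-143-5p (0.907), and miR-196b-5p to miR-145a-5p (0.924), miR-145a-3p (0.921) and miR-143-5p (0.914). miR-196a-2-3p was nearest to miR-143-5p (0.891). Between members, miR-196a-5p and miR-196b-5p had r = 0.987, miR-10a-5p and miR-10b-5p r = 0.961, and miR-10a-5p and miR-196a-5p r = 0.494. The libraries of a tissue share its level, so the 16 points are not independent.

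Relatives of miR-10 outside the Hox clusters (miR-99, miR-100 and miR-125) and miR-615, a further Hox cluster miRNA, made a list of 13 entries, 9 of them with a mean of at least 10 CPM. They did not share 1 direction between segments, but more stood higher in caput than in cauda. Of the 9, only miR-100-5p was higher in every cauda library in both seasons (NR means 3264 against 2274 CPM, R means 3348 against 1860 CPM). That was so for 36.9% of all entries in NR and 24.0% in R. Higher in every caput library were 4 in NR and 5 in R, beside 16.6% of all entries in each season. miR-99b-5p was among them in both seasons, with NR means of 886 CPM in caput and 435 CPM in cauda. Its caput means exceeded cauda means 2.04-fold (NR) and 2.17-fold (R), and those of miR-99a-3p 2.48-fold and 2.93-fold. Both stood above every miR-10 entry in the same season. A higher level in caput was thus not confined to the miR-10 entries. miR-125b-5p was the most abundant, at 68623 CPM in cauda NR and 74276 CPM in caput NR, and those groups overlapped. miR-615-3p, named here after its values were seen, was also highest in cauda, but at most 4.4 CPM in a library. Season was called for 0 of the 10 list entries tested in testis, 0 of 11 in caput and 0 of 11 in cauda, with median log2 changes of -0.25, -0.02 and 0.09. Of these, miR-125a-5p had positive changes in testis (0.85), caput (0.81) and cauda (0.63), with edgeR adjusted p of 0.598, 0.428 and 0.209.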

How the data were processed

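The deposited miRNA table holds raw counts per entry, 1 column per library, which the authors made without normalization as far as the values show. featureCounts and bedtools are named, per the submitters' processing notes, while aligner, build and tool versions are not given in the sources used. The RNA-seq and piRNA tables were not used here. CPM is the count divided by the column's total. Of 18 columns, 2 that equalled the mean of the others of their group were left out (at most 5.35% of nonzero entries did so in any measured column). Totals of 2166152 to 14756858 counts limit precision mainly for entries of a few counts.

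Members, lists and tests were chosen with earlier results of these data known. Seasons were compared within a tissue by the quasi-likelihood test of edgeR 4.0.16 (R 4.3.3) after TMM scaling and filterByExpr, adjusted over all entries tested and called under 0.05. The fit was also run on simulated counts with the same dispersion for every entry and no outlying library. Those settings differ from the testis libraries, so that run does not bear on their season values. Ratios had 0.5 counts added to each side. Likeness considered mouse-named entries of other stems with a mean of at least 10 CPM and took the 3 with the highest r. All members were accounted for, and those with a mean of at least 10 CPM are given per library. Alternatives were library totals, DESeq2 1.42.0 or its size factors, no filter, a replicate block, all libraries in 1 fit, averaged columns kept and each library left out. For levels they were TMM scaling, totals without the 10 most abundant entries and totals of mouse-named entries. Sequences and coordinates of the members were not used here.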

Additional observations from a re-analysis of the deposited data

How the results depend on the processing

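No member passed an adjusted p of 0.05 in any tissue under any alternative run. Adjusted p-values of members ranged over the alternatives from 0.222 to 1.00 in testis, 0.208 to 1.00 in caput, 0.102 to 1.00 in cauda, 0.463 to 1.00 for caput minus cauda and 0.811 to 1.00 for testis minus caput. Counts of all entries called did move. Testis gave 27 with DESeq2, 1 with all libraries in 1 fit and 9 with averaged columns kept, against 0. Caput gave 20 with DESeq2 and 3 with averaged columns kept, against 0. Cauda gave 48 with DESeq2, 1 without the filter, 0 with all libraries in 1 fit and 0 with the replicate block, against 14. Leaving out 1 library gave 0 to 24 in cauda: 24 without CAUDA-NR 3, 4 without CAUDA-R 1, 1 without CAUDA-R 2 and 0 without any of the other 3. It gave 0 to 1 for caput minus cauda, which was 1 with averaged columns kept, and 0 to 2 for testis minus caput. The cause of these moves was not tested.

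Replicate numbers were not taken to pair the libraries. Deviations of same-numbered NR and R libraries correlated at 0.149 to 0.210 in testis, -0.155 to -0.154 in caput and 0.0144 to 0.190 in cauda, and the labels tie no number to an animal. Between tissues of a season, same-numbered libraries correlated at 0.0834 to 0.0917 (NR) and 0.0821 to 0.219 (R) for caput and cauda, positive in all 5 pairs but not over 0.1 in each, at 0.0373 (NR) and -0.0306 to 0.401 (R) for testis and caput, and at -0.0058 to 0.0040 (NR) and -0.108 to 0.056 (R) for testis and cauda. With the replicate block the log2 change of miR-10b-5p in caput became 0.19 and the caput minus cauda difference of miR-10b-3p -0.0343, both of the other sign. miR-10b-5p in caput was also positive in 1 fit (0.051) and with averaged columns kept (0.00353). miR-10a-5p in cauda was 0.00638 with DESeq2 size factors and 0.00644 with DESeq2. For caput minus cauda, miR-10b-3p was -0.0146 with averaged columns kept, and miR-196b-5p was 0.00466 with library totals. Leaving out 1 library turned the sign of several changes. In testis miR-10a-3p ran from -3.74 to 0.58, miR-10a-5p from -2.04 to 0.28, miR-196a-5p from -1.18 to 0.27 and miR-196b-5p from -1.11 to 0.39. In caput miR-10a-5p ran from -0.15 to 0.31 and miR-10b-5p from -0.35 to 0.21, and in cauda miR-10a-5p from -0.18 to 0.11. For caput minus cauda the ranges were -0.29 to 0.030 (miR-10a-3p), -0.021 to 0.29 (miR-10a-5p), -0.080 to 0.14 (miR-10b-3p) and -0.32 to 0.076 (miR-196b-5p). For testis minus caput they were -4.08 to 0.83 (miR-10a-3p), -2.68 to 0.15 (miR-10a-5p), -0.63 to 1.007 (miR-196a-5p) and -0.77 to 0.95 (miR-196b-5p).

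Tissue levels moved with single testis libraries and with TMM scaling. Without TESTIS-NR 1, miR-10a-3p in NR went from 4.40 to 6.88 (caput over testis, log2) and from 3.87 to 6.35 (cauda over testis). With TMM, caput over testis in R went from 3.08 to 3.96 for miR-10b-5p, from 3.08 to 3.87 for miR-10b-3p, from 0.26 to 1.03 for miR-196a-5p and from 0.44 to 1.23 for miR-196b-5p, and cauda over testis in R from 2.08 to 2.47 for miR-10b-5p and from 3.36 to 3.76 for miR-196a-5p. With TMM the log2 ratio of cauda over caput became -0.91 (NR) and -0.96 (R) for miR-10a-3p, -0.92 and -1.21 for miR-10a-5p, -0.96 and -1.49 for miR-10b-5p, -0.22 and -0.41 for miR-10b-3p, and 3.16 in NR for miR-196b-5p. Without the 10 most abundant entries miR-10a-3p was -0.71 and miR-10b-3p -0.025 in NR.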
